A study of Homo sapiens with 6 samples.

Results

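Transcript levels of 40 human genes for iron- and 2-oxoglutarate-dependent dioxygenases were examined in manganese-exposed and untreated SH-SY5Y cells. The genes were taken by name, as members of this enzyme class, and the rule uses no measured value, although the list was drawn up with earlier results of these data known. All 40 had at least 1 probe set annotated to that gene alone, among 18132 genes with such a probe set, and each gene is represented by its brightest probe set. Of the 40 genes, 37 were bright enough to be tested, among 13407 tested genes, and ALKBH8, P4HA3 and PLOD2 were too dim. The list was divided into 13 JmjC histone demethylase genes, 4 JmjC hydroxylase genes, 12 TET, ALKBH and FTO genes, 8 collagen hydroxylase genes and 3 others (ASPH, PHYH and OGFOD1).

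Enzymes of this class hold a ferrous iron ion in the active site and use molecular oxygen and 2-oxoglutarate to hydroxylate a substrate, releasing succinate and carbon dioxide. On methyl groups the hydroxylation leads to demethylation, as on histone lysines, DNA and RNA, while on collagen it gives the hydroxyproline and hydroxylysine that stabilize and cross-link the triple helix. The need for iron and oxygen links the class to metal handling and to oxygen sensing, and several of its genes are known targets of hypoxia-inducible factors (HIF). Arrays measure transcripts, so nothing below bears on the activity of the enzymes.

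SH-SY5Y is a human neuroblastoma cell line with features of noradrenergic neuroblasts. The series compares 3 arrays from cultures treated with manganese at 100 µM for 24 h, a dose given by the labels as the median lethal concentration divided by 5, with 3 arrays from untreated cultures. Both groups were kept in an equal mix of MEM and F12 containing serum, and biotin-labelled cRNA was hybridised. Within a group the arrays are labelled as biological replicates, but whether the cultures were started separately is not given, so p-values measure only the spread between these arrays. The labels give neither the manganese salt nor a clone of the line.

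The arrays differed in ways that touch the results below. Control 1 and control 3 had mean levels of 5.82 to 6.09 (log2) over the 24 probe sets that read poly(A) spike-ins, whereas the manganese arrays lay between 7.70 and 7.83 and control 2 was at 7.69. Control 1 was the lowest of the 6 arrays for 37.1% of all tested genes and the highest for 27.9%. Noradrenergic markers were present, with mean log2 levels over the 10 tested of 11 listed genes between 11.06 and 11.12 on manganese arrays and between 11.19 and 11.31 on control arrays. Mesenchymal markers, 7 of 10 tested, had mean levels between 7.48 and 7.61 in manganese and between 7.36 and 7.67 in controls, with CD44, LUM and COL3A1 below the filter on dim probe sets. Of 6 Schwann and glial markers 3 were tested, at mean levels of 6.11 to 6.21 in manganese and 6.13 to 6.29 in controls. In RNA from a whole culture, fewer cells of a type and less RNA per cell cannot be told apart.

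None of the dioxygenase genes passed the threshold in manganese-exposed cells: 0 of 37 had a limma p, adjusted over the 13407 genes, under 0.05. Among all genes 0.142% passed, 0.134% higher and 0.00746% lower. At an unadjusted p under 0.05 there were 4 members (10.8%, against 12.8% of all genes). P4HA2, P4HA1 and ALKBH5 were the 3 higher ones, where the background was 5.97%, and P3H1 was the 1 lower one, where it was 6.85%. Groups did not overlap for 7 members (18.9%, against 19.8% of all genes), 5 higher against a background of 10.5% and 2 lower against 9.26%. These shares of the 37 are near the background. An absolute log2 difference of at least 0.5 was seen for 5 members (13.5%, against 6.26% of all genes), and 3 of these 5 were the JmjC genes KDM5A, KDM5B and KDM7A. Of the 37, 16 had positive differences, with a median of -0.03, while 54.1% of all genes were positive and their median was 0.02. Centring arrays on housekeeping genes turned this to 21 positive members with a median of 0.06, where the median of all genes was 0.11. The mean of the 14 housekeeping genes was 10.13 on control 1, 9.91 on control 2 and 9.88 on control 3. On manganese arrays it was 9.86 to 9.90, so this centring mainly lowered control 1 relative to the other arrays. The member closest to the threshold was P4HA2, with an adjusted p of 0.0819.

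**Figure D1:**
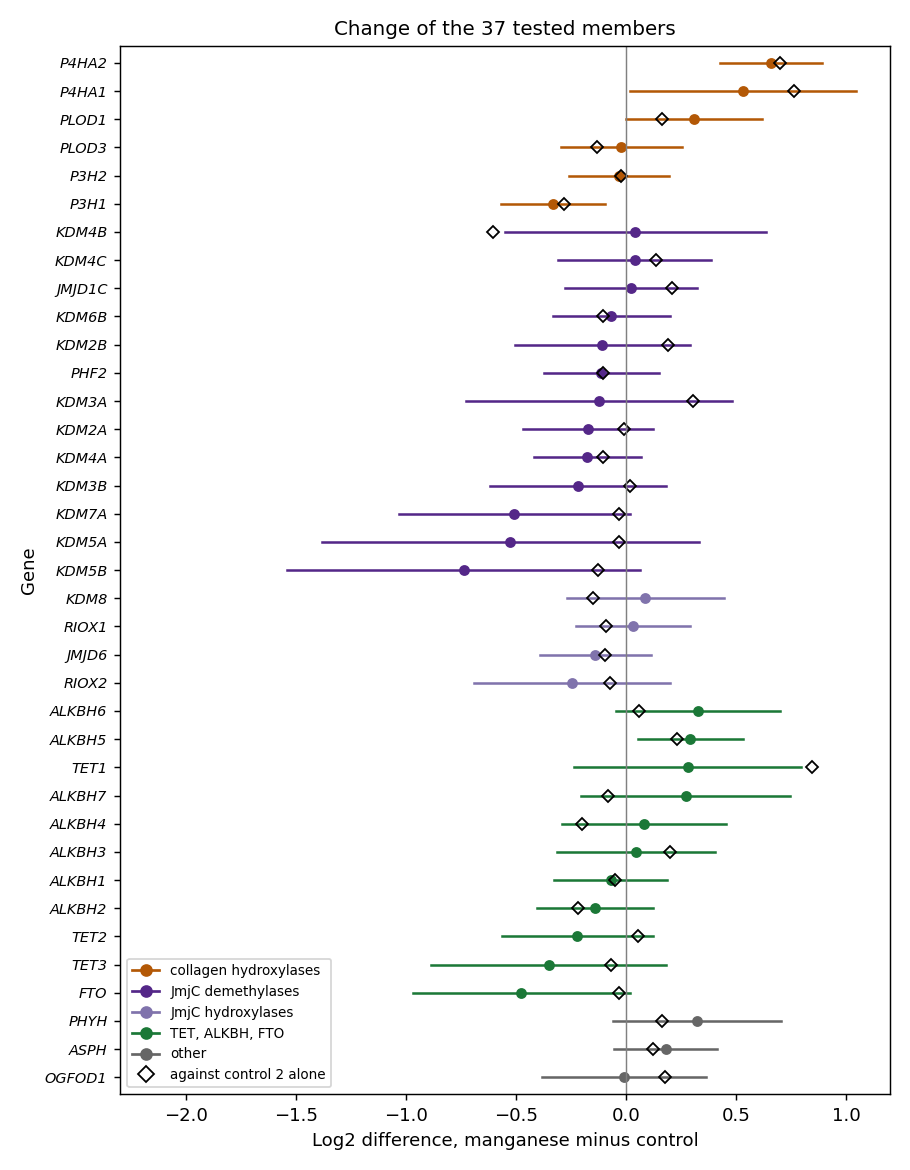
Log2 difference, manganese minus control, of the 37 tested genes, grouped by family. Filled circles with bars are the limma estimates with 95% intervals from all 6 arrays, and open diamonds are the differences against control 2 alone. The intervals of P4HA2, P4HA1, ALKBH5 and P3H1 do not reach 0. The circles of KDM3A, KDM5A, KDM5B, KDM7A, TET1 and FTO lie far to the left of their diamonds, and that of KDM4B far to the right.

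Of 6 tested collagen hydroxylase genes 3 had positive and 3 negative differences, with a median of 0.14 that was 0.06 without control 1 and 0.07 against control 2 alone. Collagen prolyl 4-hydroxylase makes the 4-hydroxyproline that keeps the collagen triple helix stable at body temperature, and P4HA1, P4HA2 and P4HA3 encode its alternative catalytic subunits. P4HA2 had log2 levels of 8.93, 8.91 and 8.96 on the manganese arrays, against 8.36, 8.23 and 8.22 on the control arrays. Every manganese array was above every control array, and the spread was small in both groups. The difference was 0.66 ± 0.10 (SE, n = 3 each), with a 95% interval of 0.43 to 0.89, or 1.58-fold. Leaving out control 1 gave 0.70 (limma adjusted p 0.0428), and taking control 2 as the only control gave 0.70 (0.276). P4HA2 was the 1 member that passed the threshold under any alternative, also with arrays centred on their median (adjusted p 0.0467) or on housekeeping genes (0.0172) and with probe sets averaged (0.0482). It did not pass under the other alternatives. The limma adjusted p was 0.116 with a trended and robust variance model and 0.300 with the replicate block. Without single manganese arrays it ran from 0.326 to 0.493, and without control 3 it was 0.408. P4HA2 is read by 1 probe set.

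P4HA1 had levels of 7.18, 7.40 and 7.71 in manganese, against 7.38, 6.67 and 6.65 in controls. Control 1 lay inside the manganese range, so the groups overlapped, while control 2 and control 3 were lower than all 3 manganese arrays. The difference was 0.53 ± 0.22 (SE), with a 95% interval of 0.01 to 1.04 and a limma adjusted p of 0.383. It was 0.77 without control 1 (adjusted p 0.124), 0.39 without manganese 3 and 0.76 against control 2 alone. P4HA3, below the filter on every array, was between 3.52 and 3.70 in manganese and between 3.55 and 3.67 in controls. No change of P4HA3 could be read at such levels.

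P3H1 encodes a prolyl 3-hydroxylase that works on collagen in a complex with CRTAP and cyclophilin B. Its levels were 7.46, 7.53 and 7.37 in manganese, against 7.77, 7.74 and 7.86 in controls, with no overlap and in the direction opposite to P4HA2. The difference was -0.33 ± 0.10 (SE), with a 95% interval of -0.57 to -0.10 and a limma adjusted p of 0.292. Its other kept probe set gave -0.33 too, also without overlap. Without control 1 the difference was -0.34, and against control 2 alone it was -0.29. P3H2, which encodes a related prolyl 3-hydroxylase, was between 5.78 and 5.80 in manganese and between 5.76 and 5.90 in controls, a difference of -0.03 with a 95% interval of -0.26 to 0.20.

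PLOD1, PLOD2 and PLOD3 encode lysyl hydroxylases, whose hydroxylysine is the attachment site of collagen sugars and a base of cross-links. PLOD1 lay between 8.33 and 8.40 in manganese and between 7.79 and 8.20 in controls, without overlap. The difference was 0.31 ± 0.13 (SE), with a 95% interval of -0.00 to 0.62 and a limma adjusted p of 0.392, and it was 0.17 without control 1 and 0.16 against control 2 alone. A second probe set of nearly the same brightness gave 8.55, 8.35 and 8.40 in manganese, against 7.58, 8.15 and 7.98 in controls, a difference of 0.53 ± 0.16. Control 1 was the lowest array at both probe sets, so the size of the PLOD1 difference depends on that array and on the probe set. PLOD3, which encodes a lysyl hydroxylase that also transfers sugars, lay between 10.21 and 10.29 in manganese and between 10.08 and 10.39 in controls, a difference of -0.02 (-0.30 to 0.25), and its 5 probe sets ranged from -0.09 to 0.13. PLOD2, the telopeptide lysyl hydroxylase and a known HIF target, stayed below the filter at all 4 probe sets. The brightest of them lay between 3.09 and 3.18 in manganese and between 3.06 and 3.18 in controls.

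**Figure D2:**
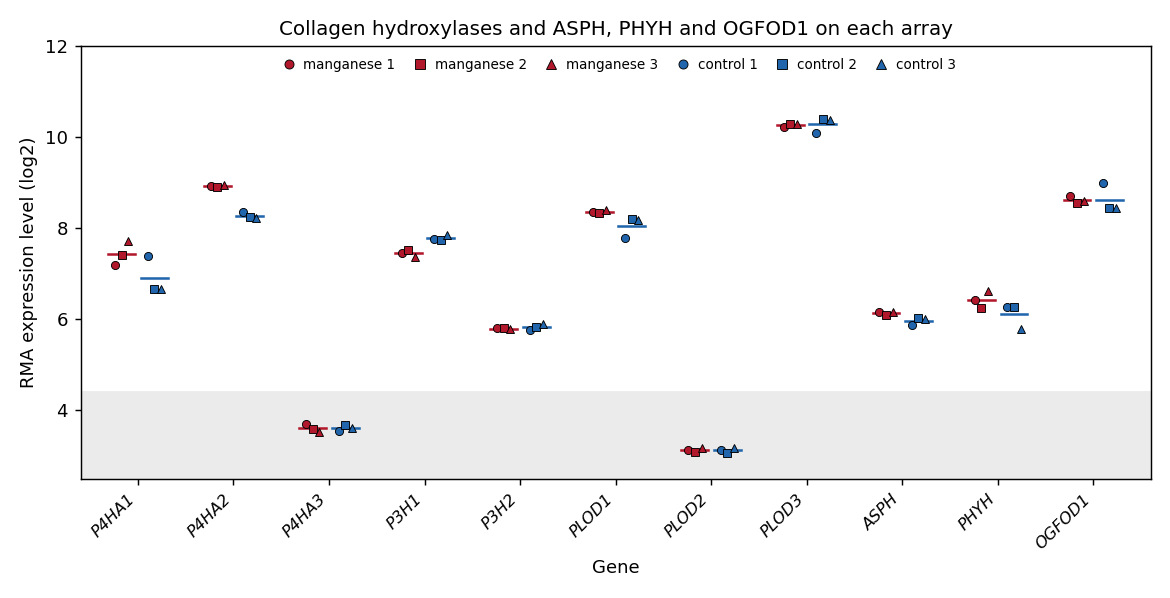
RMA expression level (log2) of the 8 collagen hydroxylase genes and of ASPH, PHYH and OGFOD1 on each array. Red symbols are manganese arrays and blue symbols controls, horizontal lines are group means, and the grey band lies below the highest 40th percentile of the arrays; the red and blue symbols of P4HA2 and of P3H1 are fully apart, in opposite directions, while P4HA3 and PLOD2 lie in the band.

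Sequences upstream of 4 of these genes are shown because P4HA2 and P4HA1 were the 2 members with the largest positive differences, PLOD1 is a further known HIF target and P3H1 differed the other way. Each is the 250 bases before the gene start in RefSeq (GRCh38.p14), written in the direction of the gene. HIF binds the core letters ACGTG or GCGTG, and capitals mark these letters on either strand. The core overlaps the E-box CACGTG, which other factors bind. The intervals are chr5:132227092-132227341, minus strand, for P4HA2; chr10:73096867-73097116, minus strand, for P4HA1; chr1:11934467-11934716, plus strand, for PLOD1; and chr1:42767029-42767278, minus strand, for P3H1.
P4HA2: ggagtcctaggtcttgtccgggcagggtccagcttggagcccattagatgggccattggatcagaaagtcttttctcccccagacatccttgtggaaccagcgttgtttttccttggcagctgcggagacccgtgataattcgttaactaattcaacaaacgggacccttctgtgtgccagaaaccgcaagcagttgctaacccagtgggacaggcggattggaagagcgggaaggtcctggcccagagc
P4HA1: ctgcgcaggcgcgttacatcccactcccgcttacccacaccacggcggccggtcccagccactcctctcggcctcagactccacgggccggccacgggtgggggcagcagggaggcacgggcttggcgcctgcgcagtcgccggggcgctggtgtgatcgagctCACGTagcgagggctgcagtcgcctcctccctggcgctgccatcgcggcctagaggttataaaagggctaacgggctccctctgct
PLOD1: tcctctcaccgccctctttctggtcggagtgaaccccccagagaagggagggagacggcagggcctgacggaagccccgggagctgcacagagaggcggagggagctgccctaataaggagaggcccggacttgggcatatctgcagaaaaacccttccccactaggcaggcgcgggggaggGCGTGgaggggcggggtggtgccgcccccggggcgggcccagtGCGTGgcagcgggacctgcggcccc
P3H1: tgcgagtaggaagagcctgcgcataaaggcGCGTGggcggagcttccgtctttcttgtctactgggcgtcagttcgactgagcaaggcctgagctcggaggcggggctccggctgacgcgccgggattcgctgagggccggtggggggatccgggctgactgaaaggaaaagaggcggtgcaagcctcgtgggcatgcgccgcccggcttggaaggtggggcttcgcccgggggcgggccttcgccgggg
The window of P4HA2 held 0 such cores, those of P4HA1 and P3H1 held 1 each, and that of PLOD1 held 2. Of 35116 promoter windows of the same length 43.2% held at least 1 core, against 68.6% of the 51 windows of members. Of the 35 members with a window 27 held it in at least 1 window (77.1%, against 47.4% of 27305 genes). That second share can rise with the number of windows a gene has. Base composition of the windows was not compared, and the difference in shares was not tested. A match is a description of these letters, and their absence from a window says nothing about HIF at that gene. These 4 genes were picked partly by their differences, and a relation between cores and differences was not tested.

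Of 6 members listed here as known HIF targets (P4HA1, P4HA2, PLOD1, PLOD2, KDM3A and KDM4B) 5 were tested. The list may leave out other such members. Positive differences were found for 4 of the 5, where 54.1% of all genes were positive. The median of the 5 was 0.31, the value of PLOD1, and KDM4B, at 0.04, is among the 4. The 2 histone demethylase genes of the list did not share the size of the P4HA2 difference. KDM3A, which encodes an eraser of a repressive methyl mark on histone H3, lay between 7.58 and 7.84 in manganese and between 7.43 and 8.52 in controls, a difference of -0.13 ± 0.26 (SE) with a 95% interval of -0.73 to 0.48. Without control 1 the KDM3A difference turned to 0.21, and against control 2 alone it was 0.30. KDM4B, which encodes another eraser of that mark, lay between 8.39 and 8.56 in manganese and between 7.96 and 9.07 in controls, a difference of 0.04 ± 0.26 that turned to -0.05 without control 1 and to -0.61 against control 2 alone.

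JmjC histone demethylase genes had negative differences in 10 of 13 cases, with a median log2 difference of -0.13 against 0.02 over all tested genes, and 0 of the 13 passed the threshold or an unadjusted p under 0.05. Control 1 was the highest of the 6 arrays for 6 of the 13 and the lowest for 0. Against control 2 alone 8 of 13 were negative and the median was -0.03. Without control 1 the median was -0.05, with 9 of 13 negative. Centring arrays on housekeeping genes also gave 9 of 13 negative and a median of -0.03. Control 2 lay inside the manganese range for 7 of the 13, and without it the median was -0.26, with 12 of 13 negative.

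The 3 demethylase genes with the largest differences showed this dependence on single controls. KDM5B encodes an eraser of the histone H3 methyl mark found at active promoters. It had levels of 7.10, 6.95 and 7.37 in manganese, against 8.77, 7.27 and 7.60 in controls. Control 1 stood far above the other 5 arrays, and control 2 lay inside the manganese range. The difference was -0.74 ± 0.35 (SE, 95% interval -1.54 to 0.06, limma adjusted p 0.416). It was -0.29 without control 1, -0.13 against control 2 alone and -1.05 without control 2. At the dimmest kept KDM5B probe set the groups did not overlap, with a difference of -0.55. Levels there were 6.78, 6.75 and 6.90 in manganese, against 7.92, 7.05 and 7.13 in controls.

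KDM5A, the paralog of KDM5B that erases the same mark, had levels of 5.26, 5.68 and 5.79 in manganese, against 7.07, 5.61 and 5.64 in controls. Only control 1 stood apart, and the other 5 arrays lay within the range of the manganese arrays. The difference was -0.53 ± 0.37 (SE, 95% interval -1.38 to 0.33, limma adjusted p 0.563), and -0.05 without control 1. KDM7A, which encodes an eraser of repressive methyl marks on histone H3, had levels of 5.08, 5.37 and 5.67 in manganese, against 6.09, 5.40 and 6.15 in controls. Control 2 lay inside the manganese range and the other controls above it. The difference was -0.51 ± 0.23 (SE, 95% interval -1.03 to 0.02, limma adjusted p 0.404), -0.41 without control 1, -0.75 without control 2 and -0.03 against control 2 alone.

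**Figure D3:**
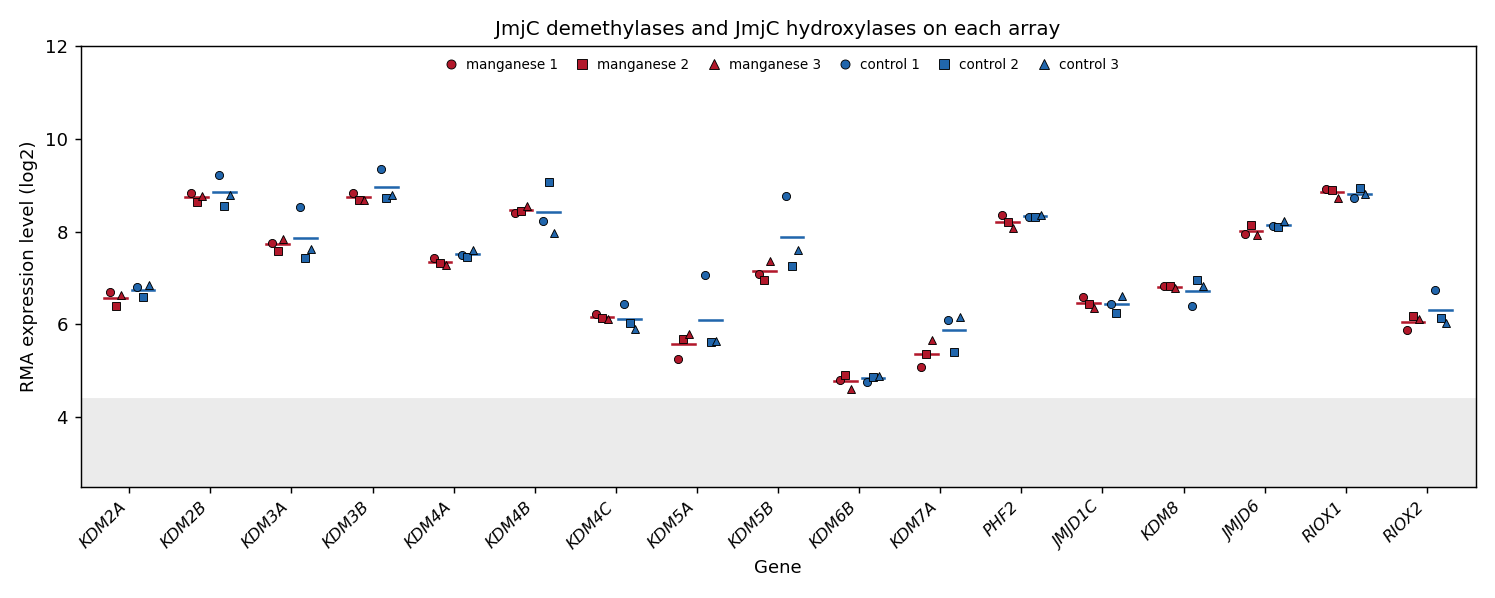
RMA expression level (log2) of the 13 JmjC histone demethylase genes and 4 JmjC hydroxylase genes on each array, with manganese in red, controls in blue, group means as lines and the grey band below the highest 40th percentile. Control 1, the blue circle, is the highest symbol for 6 of the 13 demethylase genes, among them KDM5A and KDM5B.

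KDM4A was the demethylase gene whose groups did not overlap. It encodes an eraser of trimethyl marks on histone H3. It lay between 7.27 and 7.43 in manganese and between 7.45 and 7.61 in controls, and the difference of -0.18 ± 0.11 (SE) had a 95% interval of -0.42 to 0.07. Its second probe set gave -0.42, with overlapping groups. The remaining 9 demethylase genes, KDM3A and KDM4B included, had differences between -0.22 for KDM3B and 0.04 for KDM4B. The KDM3B difference was -0.02 without control 1 and 0.01 against control 2 alone. KDM2A and KDM2B, which encode histone H3 demethylases that bind CpG islands, differed by -0.17 and -0.11, and their probe sets did not all have 1 sign. KDM2B turned to 0.08 without control 1 and to 0.19 against control 2 alone. KDM6B, which encodes an eraser of the repressive Polycomb mark on histone H3, differed by -0.07 (-0.33 to 0.20). PHF2 differed by -0.11, JMJD1C by 0.02 and KDM4C by 0.04.

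The JmjC hydroxylases act on proteins rather than on methyl marks. JMJD6 hydroxylates lysines of splicing factors, and its levels of 7.93 to 8.14 in manganese and 8.10 to 8.22 in controls differed by -0.14 (-0.39 to 0.11). RIOX1 and RIOX2 encode ribosomal protein hydroxylases. RIOX1 differed by 0.03 (-0.23 to 0.29) and RIOX2 by -0.25 (-0.69 to 0.20), with control 1 the highest array for RIOX2. KDM8, also known as JMJD5, differed by 0.09 (-0.27 to 0.44).

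TET, ALKBH and FTO genes had 6 positive and 5 negative differences among 11 tested, with a median of 0.04, and 0 passed the threshold. That median turned negative without control 1 (-0.05), control 2 (-0.03), control 3 (-0.05) or manganese 2 (-0.01) and against control 2 alone (-0.03), so the family has no settled direction. ALKBH5 encodes an eraser of N6-methyladenosine in messenger RNA. It had levels of 11.07, 11.06 and 11.09 in manganese, against 10.66, 10.84 and 10.84 in controls. All manganese arrays were above all controls, and the manganese arrays lay close together. The difference was 0.29 ± 0.10 (SE, 95% interval 0.05 to 0.53, limma adjusted p 0.332), 0.23 without control 1 and 0.23 against control 2 alone. At the other 2 ALKBH5 probe sets the difference was 0.05 and 0.16.

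FTO encodes the other known eraser of methyladenosine in messenger RNA, and it lay on the opposite side. Its levels ran from 8.33 to 8.60 in manganese and from 8.45 to 9.34 in controls, and control 1 was the highest array. The difference was -0.48 ± 0.21 (SE, 95% interval -0.97 to 0.02, limma adjusted p 0.405). It was -0.26 without control 1 and -0.03 against control 2 alone. Of 3 FTO probe sets 1 was kept, and those below the filter differed by -0.07 and 0.03. The difference in change between ALKBH5 and FTO was not tested.

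TET enzymes oxidize 5-methylcytosine in DNA. TET1 lay between 5.39 and 5.54 in manganese and between 4.62 and 5.51 in controls, where control 2 alone was low. Its difference of 0.28 (-0.24 to 0.80) became 0.85 with control 2 as the only control (limma adjusted p 0.207) and -0.0040 without control 2, so it rests on that array. TET3 lay between 6.94 and 7.33 in manganese and between 7.18 and 8.02 in controls, with control 1 the highest array, a difference of -0.35 (-0.89 to 0.18) at 1 probe set and 0.07 at the other. At the first it was -0.08 without control 1 and -0.07 against control 2 alone. TET2 differed by -0.22 (-0.57 to 0.12) and exceeded the 40th percentile of the array on just 3 arrays.

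**Figure D4:**
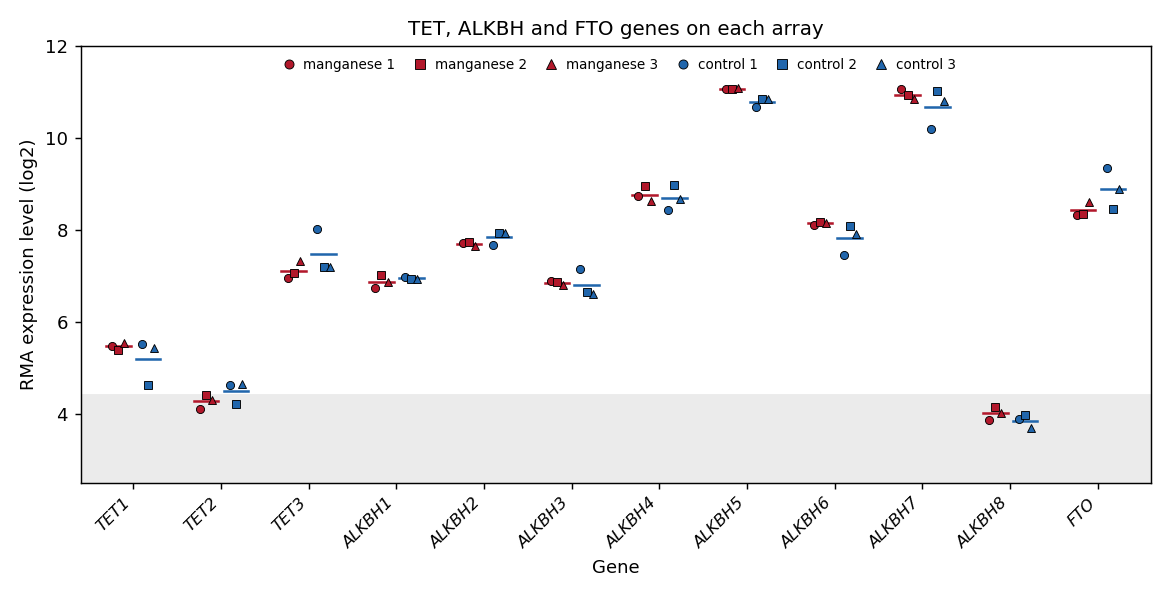
RMA expression level (log2) of TET1, TET2, TET3, the 8 ALKBH genes and FTO on each array, with manganese in red, controls in blue, group means as lines and the grey band below the highest 40th percentile. The manganese symbols of ALKBH5 and ALKBH6 lie above all their control symbols, and control 1 is the highest symbol of TET3 and FTO.

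ALKBH6 lay between 8.11 and 8.16 in manganese and between 7.45 and 8.08 in controls, without overlap. The difference was 0.33 (-0.05 to 0.70), but control 1 was the lowest array, and against control 2 alone it was 0.06. ALKBH7, which encodes a mitochondrial protein linked to programmed necrosis, differed by 0.27 (-0.20 to 0.74) and by -0.08 against control 2 alone. The DNA and RNA repair genes ALKBH2 and ALKBH3 differed by -0.14 (-0.41 to 0.12) and 0.04 (-0.32 to 0.40). ALKBH1, whose product acts on transfer RNA among other substrates, differed by -0.07 (-0.33 to 0.19), but its second, dimmer probe set gave -0.49 without overlap. ALKBH4 differed by 0.08 (-0.29 to 0.45). ALKBH8, the transfer RNA wobble uridine hydroxylase, was below the filter, at 3.87 to 4.14 in manganese and 3.70 to 3.97 in controls.

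Of the remaining 3 genes, ASPH had non-overlapping groups. ASPH encodes the endoplasmic reticulum aspartyl hydroxylase that modifies EGF-like domains, and splice forms of the same gene encode calcium-handling proteins without the catalytic domain. It lay between 6.09 and 6.17 in manganese and between 5.86 and 6.02 in controls, a difference of 0.18 ± 0.10 (SE, 95% interval -0.06 to 0.41). All 5 kept ASPH probe sets were positive, from 0.14 to 0.41. PHYH, the peroxisomal phytanoyl-CoA hydroxylase, lay between 6.25 and 6.62 in manganese and between 5.79 and 6.27 in controls, with overlap, a difference of 0.32 (-0.06 to 0.70). It was 0.16 against control 2 alone. OGFOD1, a prolyl hydroxylase of a ribosomal protein, differed by -0.01 (-0.38 to 0.36).

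Probe sets gave a further view of the same arrays. The 40 genes were read by 116 probe sets, of which 82 were kept, and 0 of the 82 passed when p-values were adjusted over the 29871 probe sets kept in the whole table (32 passed there). Of 25 members with more than 1 kept probe set, 18 had probe sets of 1 sign and 7 had mixed signs. Probe sets of a gene can share probes, so they are not independent measurements. KDM5A and KDM5B kept their sign at all 3 probe sets each, from -0.67 to -0.53 and from -0.78 to -0.55. TET3 and ALKBH1 had the widest ranges, at 0.43 and 0.42.

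**Figure D5:**
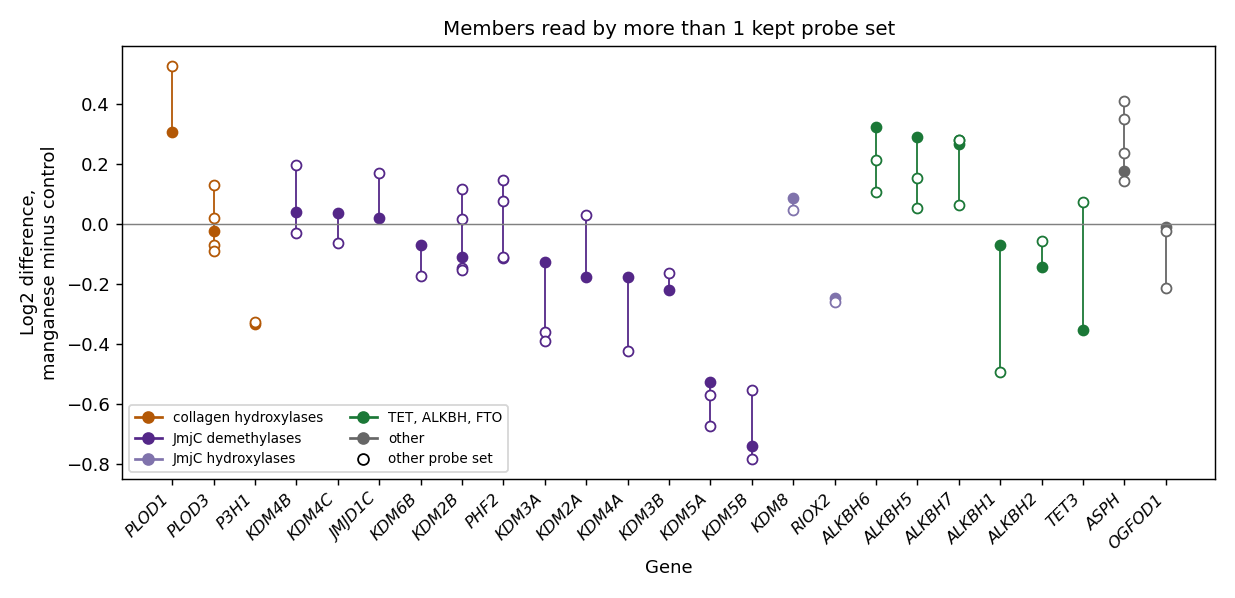
Log2 difference, manganese minus control, at each kept probe set of the 25 members read by more than 1 such probe set. Filled circles are the probe sets that stand for the gene, open circles the others; all circles of KDM5A, KDM5B and P3H1 lie below 0 and all circles of PLOD1, ALKBH5, ALKBH6, ALKBH7 and ASPH above it.

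The spread between arrays was larger in controls than in manganese for 31 of the 37 members, with a median SD of 0.28 in controls and 0.10 in manganese. Over all tested genes the control SD was larger for 74.7%, with medians of 0.19 in controls and 0.11 in manganese.

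Of 23 listed dioxygenase genes of the class outside the 40, 18 were tested and 0 passed the limma threshold. Positive differences were found for 12 of the 18, with a median of 0.13, against 16 of the 37 members with a median of -0.03. An unadjusted limma p under 0.05 was found for 4 of the 18 (22.2%, against 12.8% of all genes). The mean level of the 18 was 7.20 on control 1, 7.38 on control 2 and 7.25 on control 3, against 7.34 to 7.40 in manganese. The difference between the lists was not tested. EGLN3, a HIF prolyl hydroxylase gene that HIF itself induces, was at 7.19, 7.31 and 7.05 in manganese, against 6.55, 6.98 and 6.36 in controls, a difference of 0.55 ± 0.17 (SE, limma adjusted p 0.289). P4HTM, which encodes a transmembrane prolyl hydroxylase, differed by 0.46 ± 0.14 and OGFOD2 by 0.37 ± 0.16, and the groups of both did not overlap. Control 1 was the lowest array for both. OGFOD2 was at 7.379 on control 2, against 7.385 to 7.580 in manganese, and P4HTM at 5.89, against 6.16 to 6.23. PHF8, a histone demethylase gene, was at 5.64, 5.45 and 5.38 in manganese, against 6.09, 5.80 and 5.94 in controls, a difference of -0.45 ± 0.12 (adjusted p 0.253). The flavin-dependent demethylase genes KDM1A and KDM1B, which need neither iron nor 2-oxoglutarate, differed by -0.19 and 0.10.

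Partners of the collagen hydroxylases had 7 positive differences among 9 tested genes, where 54.1% of all genes were positive. Their median was 0.09, and 0 passed. Their mean level was 8.98 on control 1, 9.30 on control 2 and 9.21 on control 3, against 9.27 to 9.35 in manganese. P4HB encodes the subunit that all 3 prolyl 4-hydroxylase catalytic subunits share, and it differed by 0.18 (-0.09 to 0.45). P3H4, a scaffold without catalytic activity that binds lysyl hydroxylase 1, differed by 0.38 ± 0.14 (SE) without overlap. It was at 9.21, 9.71 and 9.42 on controls 1 to 3, against 9.80 to 9.88 in manganese. LOXL2, a lysyl oxidase that cross-links collagen outside the cell, was at 6.18, 6.10 and 6.16 in manganese, against 5.44, 5.75 and 5.53 in controls, a difference of 0.57 ± 0.12 (limma adjusted p 0.142). PPIB and COLGALT1 differed by 0.09 and 0.16. Collagen genes themselves, 11 of 12 tested, were split into 5 positive and 6 negative differences with a median of -0.02. Of 7 tested mesenchymal markers 4 were positive and 3 negative, with a median of 0.02. They ranged from -0.49 for FN1 to 0.77 for VIM, which was at 11.33, 11.02 and 11.40 in manganese against 10.71, 10.50 and 10.21 in controls (limma adjusted p 0.152). Of 10 tested noradrenergic markers 8 were negative, with a median of -0.11, led by STMN2 at -0.71 without overlap (adjusted p 0.297) and ISL1 at -0.58. None of these markers passed the threshold, and their part in the collagen hydroxylase values was not tested.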

How the data were processed

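Total RNA of 3 manganese-exposed and 3 untreated cultures was measured on 1-colour Affymetrix arrays. The deposited table holds log2 values of 49395 probe sets. Per the submitters' processing notes, RMA was run in Expression Console. RMA equalizes the intensity distribution of the arrays, so a shift shared by most genes is removed. Raw intensities were not used here. Names came from the platform annotation, with 1 symbol for 44988 probe sets. Probe sets that exceeded an array's 40th percentile on 3 or more arrays were kept, which left 29871, and the brightest stood for its gene. Limma 3.58.1 in R 4.3.3 (lmFit, eBayes, group as the only term, two-sided) was fitted on 13407 genes, with Benjamini-Hochberg adjustment over all of them. Differences are manganese minus control, and n is 3 arrays a group. Lists are described by counts and medians, without a test.

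The members, lists and alternatives were chosen with earlier results of these data known. Array values were given for members with an unadjusted p under 0.05 or an absolute log2 difference of at least 0.5, and ranges for others. From each list of non-members at most 5 genes were named, by the smallest p, and VIM and P4HB are among them. The fit was tested on simulated arrays, in 20 runs with 200 changed genes each. It recovered 32.3% of changes of 0.58 (log2), 71.8% of those of 1 and 96.0% of those of 2. A run gave 6.4 false calls on average. A gene that did not pass can therefore still have changed. Alternatives changed the filter, variance model, scaling, probe-set rule and replicate block, left out single arrays, and took control 2 alone or spike-in level as a term. Same-numbered arrays of both groups correlated at -0.30, 0.15 and -0.27 in their deviations from the group means, and manganese 3 with control 1 at 0.50. With 3 arrays a group, these values cannot show whether same-numbered cultures were paired.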

Additional observations from a re-analysis of the deposited data

How the results depend on the processing

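The count of 0 members past the threshold became 1, P4HA2 each time, with arrays centred on the median, arrays centred on housekeeping genes or the mean of probe sets, and ranged from 0 to 1 over the fits that left out 1 array, with P4HA2 passing without control 1. The 7 members given in full kept their sign under all 16 alternatives, but several of these could not turn it. The filters, the variance model and the replicate block left the 7 differences unchanged. Spike-in level as a term gave the same differences as control 2 alone, where KDM5A and KDM7A were at -0.03 each. The count of 19 genes over the whole table became 50 with median centring (38 higher, 12 lower, against 18 and 1), 197 with housekeeping centring (160 higher, 37 lower), 5 against control 2 alone, 2 with spike-in level as a term and 6 with the replicate block, and ranged from 0 (without any 1 manganese array or without control 3) to 43 (without control 2) when 1 array was left out. With the replicate block 0 members passed. Housekeeping centring, which lowered control 1 most, raised the median of all genes to 0.11 and that of the JmjC hydroxylases to 0.037, against -0.06. The median of collagen hydroxylases, 0.14, was -0.0055 with the 20th percentile filter and 0.0016 without a filter, both of which add dim genes; on the same 6 genes it was 0.056 without control 1 and 0.069 against control 2 alone. Of 80 family medians under alternatives 77 moved by less than the spread between arrays, though the variance model and the replicate block could not move them. The fit against control 2 alone takes the spread of that single array to be like that of the other group. The number of arrays limits the precision.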

Other observations

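Enzymes that make or use the marks and cosubstrates of these dioxygenases are described here by count, none of them past the threshold of the limma fit. Of 17 tested genes for methyl writers and TET partners 7 were positive, with a median of -0.03. UHRF1, which guides maintenance DNA methylation, differed by 0.32 without overlap. EZH2, the writer of the Polycomb mark that KDM6B erases, was at -0.47, and EHMT1, a writer of repressive histone methylation, at -0.25, both without overlap. METTL3, the catalytic writer of methyladenosine that ALKBH5 and FTO erase, differed by -0.34 with an adjusted p of 0.507. TDG, which excises the bases that TET enzymes oxidize, differed by -0.47.

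Genes of 2-oxoglutarate and succinate metabolism were negative in 12 of 17 cases, with a median of -0.07. SDHC, a membrane subunit of succinate dehydrogenase, differed by -0.34 and GOT1, the cytosolic aspartate aminotransferase, by -0.26, both without overlap. Of 7 tested genes for iron delivery 4 were negative and 3 positive, with a median of -0.39. Control 1 had the highest mean level over the 7, at 10.13, against 9.59 for control 2, 9.74 for control 3 and 9.47 to 9.60 in manganese. SLC11A2 differed by -0.46. SLC25A37, which encodes the mitochondrial iron importer mitoferrin 1, was at 5.62, 5.58 and 5.76 in manganese, against 6.95, 6.21 and 6.54 in controls. Its difference of -0.91 ± 0.18 (SE) had a limma adjusted p of 0.142.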
